A study of Rattus norvegicus with 18 samples.

Results

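The comparison described here set adrenal glands of 3-week-old spontaneously hypertensive rats (SHR) against those of 3-week-old Wistar-Kyoto rats (WKY). Members were taken by label: the 3 arrays labelled SHR at 3 weeks and the 3 arrays labelled WKY at 3 weeks, which are 6 of the 18 arrays of the series. The other 12 arrays held WKY and SHR at 6 weeks and a stroke-prone relative, SHRSP, at both ages, with 3 arrays a group. WKY is the normotensive control strain and SHR an inbred strain that becomes hypertensive without treatment as it matures. All rats were untreated, each array held total RNA of adrenal glands that the labels call a biological replicate, and the sources used here name neither the sex of the rats nor the time of day. Transcripts were measured on one-colour Agilent arrays with 60-base probes.

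The adrenal gland joins a cortex, which makes steroid hormones from cholesterol, to a medulla of chromaffin cells, which make and store catecholamines. Both parts act on blood pressure, through aldosterone and corticosterone on the one hand and adrenaline and noradrenaline on the other. SHR is compared with WKY because the strains share an origin, but they also differ at many places in the genome that have no tie to blood pressure. At 3 weeks SHR pups are generally held to be before the rise of their blood pressure.

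A level below is the log2 of the scanner's processed signal minus the 75th percentile of its array, so that 0 is the signal of a spot at that percentile. Differences are SHR minus WKY on this log2 scale, with the standard error of limma (n = 3 arrays a group), and a gene is called where its p, adjusted by the Benjamini-Hochberg method over all genes tested, is under 0.05. A probe is called on in a group where the scanner marked it well above background on all 3 arrays, and off where it did so on none. An off probe has only a bound, so its fold is written as "at least": the bright group's mean against the higher, on each dim array, of the probe's own signal and the dimmest signal of any probe that the scanner marked well above background. Gland RNA is a mixture, in which fewer cells of a type and less RNA per cell cannot be told apart.

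The genes with the largest on/off differences each rested on a single 60-base probe, and their middle stretches, bases 16 to 45 of the probe, are shown so that the molecule behind each value can be found. On the rn4 assembly, as the files give it, the Vegfb probe lies at chr1:209657830-209657889 on the minus strand. The Kynu probe lies at chr3:24195524-24195583, the Oxnad1 probe at chr16:7574653-7574712 and the Vom2r53 probe at chr7:11818043-11818102, all on the plus strand. The sources used here do not say whether an exon or untranslated region lies under a probe. Sequence differences between the strains under the probes of the on/off genes were not tested, so an off probe tells of the signal at that probe alone.
Vegfb: tcttcaccaaatggaacaaggcatgacagc
Kynu: atcagactgcttactgccatactcgactct
Oxnad1: gtttactgaatttataattttaaatacatc
Vom2r53: tattgcttcaaattatgtaaaatatgtgac

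The labels and single arrays were checked before the comparison. All 6 cortex identity genes (Star, Cyp11a1, Nr5a1, Mc2r, Cyp11b1, Cyp21a1) and all 6 medulla identity genes (among them Th, Dbh, Pnmt, Chga and Slc18a1) were well above background on all 6 arrays. Correlations between replicates across genes were 0.994 to 0.996 in WKY and 0.990 to 0.992 in SHR. Between 77.9% and 84.8% of the spots of these arrays were well above background, with the lowest share in WKY replicate 1, and none was saturated.

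The names SHR and SHRSP mostly did not carry the same large differences at both ages. Of 39 genes that were called, did not overlap and differed 4-fold or more between SHRSP and SHR at 3 weeks, 25 were also 4-fold or more apart at 6 weeks, and 22 of these 25 had the opposite sign. The 3 with the same sign were Tent5c, Hspa1b and MGC94891. Vegfb had a mean level of 0.29 in WKY, -9.61 in SHR and 0.52 in SHRSP at 3 weeks, and of 0.54, 0.68 and -9.61 in the same order at 6 weeks. Serpinc1, the gene of antithrombin, had levels of 2.07, 2.12 and -6.35 at 3 weeks and of 3.53, -5.53 and 4.11 at 6 weeks. Across 20827 genes the SHRSP minus SHR difference at 3 weeks and that at 6 weeks correlated at r = -0.19, a description over genes that are not independent. SHR minus WKY at 3 weeks correlated at r = 0.49 with SHR minus WKY at 6 weeks. With SHRSP minus WKY at 6 weeks it correlated at r = 0.41. SHR and SHRSP therefore stand below for the arrays so labelled. Whether the names were exchanged at either age was not tested. Values at 6 weeks are therefore given both with the arrays labelled SHR and with those labelled SHRSP.

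**Figure D1:**
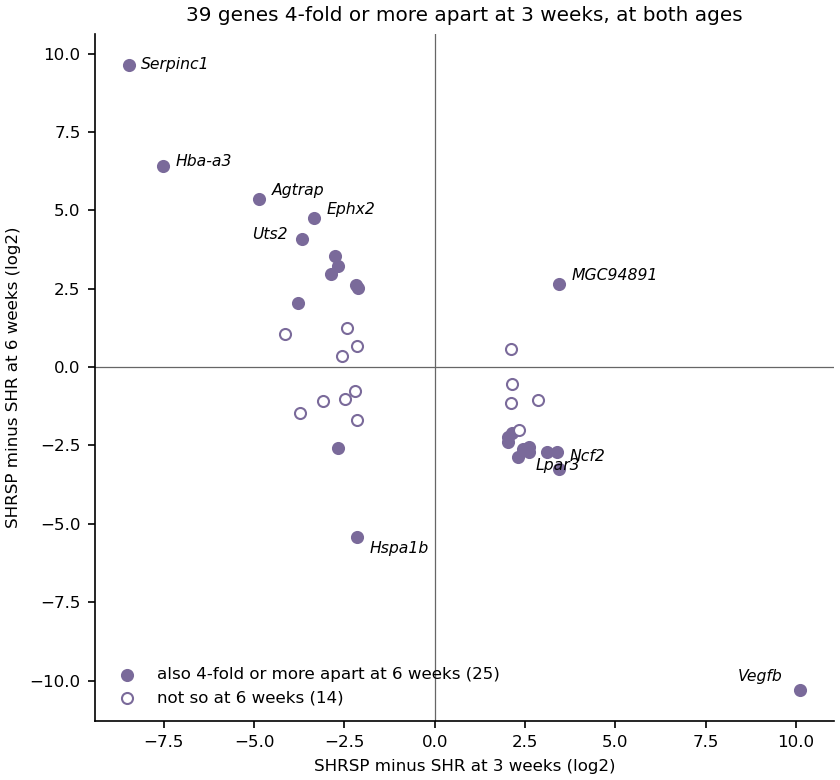
SHRSP minus SHR (log2) at 3 weeks on the horizontal axis and at 6 weeks on the vertical axis, for the 39 genes that were called and 4-fold or more apart at 3 weeks (group means of 3 arrays). Filled points are the 25 genes also 4-fold or more apart at 6 weeks, of which 22 lie in the quadrants of opposite sign, with Vegfb and Serpinc1 at the ends.

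SHR replicate 2 stood apart by transcripts of the liver. Alb, the gene of serum albumin, read -3.49, -3.43 and -2.16 in WKY and -3.09, 5.47 and 0.50 in SHR replicates 1, 2 and 3. Tf, the gene of transferrin, read 0.96, 1.02 and 1.15 in WKY and 0.86, 5.07 and 1.71 in SHR. Only SHR replicate 2 was far above the rest for both, and SHR replicate 3 was above all WKY arrays for both by less. The summed signal of the kidney and liver list (19 of 24 genes tested, in multiples of the array's 75th percentile) was 6.92 to 7.49 in WKY and 6.18, 128 and 9.04 in SHR. Aqp2, a kidney gene of that list, did not share this: it read -3.80, -4.20 and -4.0 in WKY and -3.85, -4.12 and -4.0 in SHR. Cubn, also of that list, was off in WKY and on in SHR. It read -7.81, -7.79 and -7.37 in WKY and -6.91, -6.41 and -6.33 in SHR, a difference of 1.11 ± 0.23 (adjusted p = 0.00346). Cubn was not called after normexp background correction. SHR replicate 3 had the highest levels of nerve genes, with a summed signal of 11.3 for the nerve list against 3.69 to 5.13 in the other 5 arrays. Fat genes summed to 73.2, 81.8 and 134 in WKY replicates 1, 2 and 3 and to 111, 166 and 223 in SHR. The ranges overlap, but on each of the 3 slides, which hold same-numbered arrays, SHR was above WKY. Results that these arrays touch are given with and without them.

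**Figure D2:**
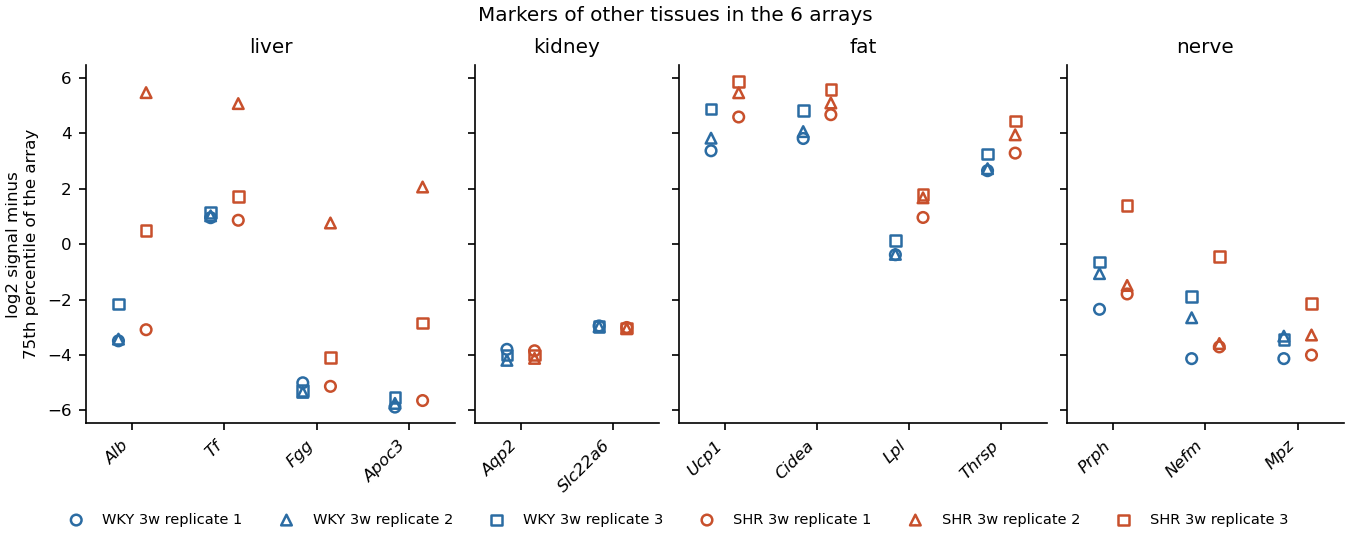
Levels (log2 signal minus the array's 75th percentile, vertical axis) of liver, kidney, fat and nerve genes in the 3 WKY and 3 SHR arrays at 3 weeks, 1 symbol per replicate. SHR replicate 2 (triangles) is highest for the 4 liver genes (Alb at 5.47) and SHR replicate 3 (squares) for Prph and Nefm (1.39 and -0.45), while Aqp2 and Slc22a6 sit together.

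Of 20827 genes tested, 3798 (18.2%) were called, 1880 higher in SHR (9.03%) and 1918 lower (9.21%). At an unadjusted p under 0.05 there were 6151. Called differences were mostly small: the median size was 0.59 on the log2 scale, with quartiles of 0.42 and 0.89, against a median signed difference of -0.0084 over all genes. Larger changes leaned upwards, since 733 called genes (3.52%) differed 2-fold or more, 471 higher and 262 lower in SHR. At 4-fold or more there were 106 higher and 37 lower. The arrays of the strains did not overlap for 8685 genes (41.7%). Same-numbered SHR and WKY arrays shared a slide, and 99.7% of the called genes had 1 sign on all 3 slides, beside 66.9% of all genes. The calls came from these same arrays, so the higher share follows from the choice of genes and is no separate support. With the slide as a fixed block 5303 genes were called. Leaving out 1 of the 6 arrays gave 2640 to 3723 calls, 2680 of them without SHR replicate 2.

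**Figure D3:**
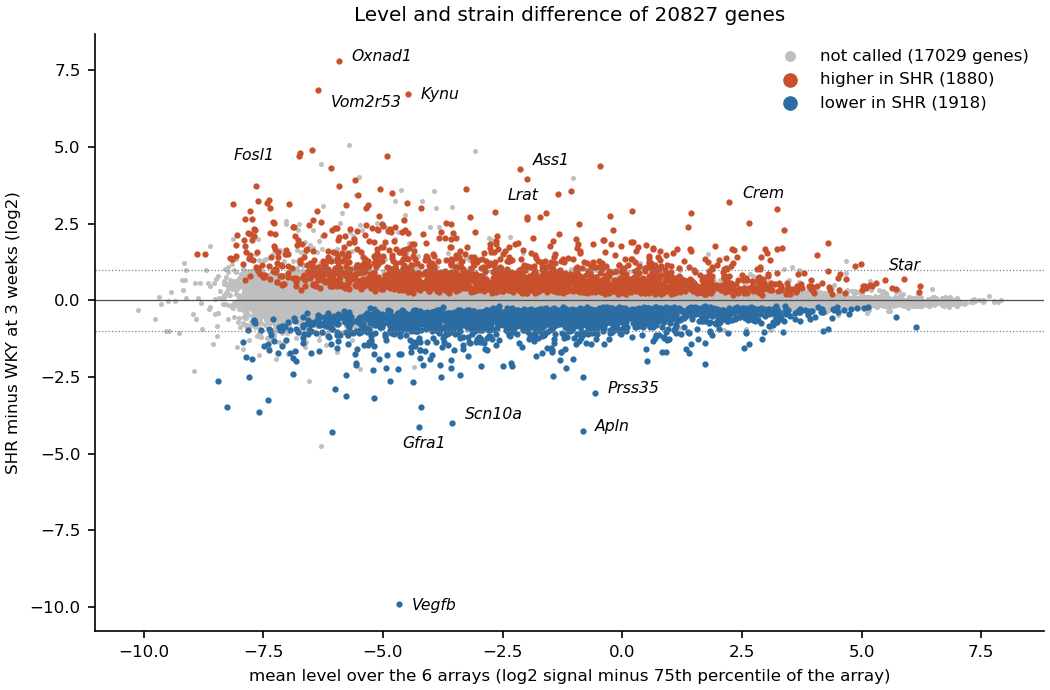
Difference between SHR and WKY at 3 weeks (log2, vertical axis) against the mean level over the 6 arrays (log2 signal minus the array's 75th percentile, horizontal axis), 1 point per gene for 20827 genes. Called genes are coloured, 1880 higher and 1918 lower in SHR, dotted lines mark a 2-fold difference, and Vegfb and Oxnad1, whose fitted values rest on an off probe in one strain, lie farthest from 0.

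Switching between on and off was uneven: 94 gene names were on in SHR and off in WKY (0.354% of 26572 names), and 11 were on in WKY and off in SHR (0.0414%). A bound of 2-fold or more was reached by 36 of the 94, so most of these lay close to the background, and by 10 of the 11. The model called 49 of the 94 and 10 of the 11, beside 18.2% of all genes tested. The flags that chose these genes come from the same arrays. The calls and adjusted p of on/off genes are therefore no separate support. The counts depended on single arrays. They were 152 and 19 without SHR replicate 1 and 230 and 13 without SHR replicate 3. Without SHR replicate 2 there were 130 in all, of which 25 were on in WKY. Leaving out WKY replicate 1, 2 or 3 gave 100 and 57, 239 and 15, and 134 and 18. At 6 weeks, in arrays the choice did not use, 9 of the 94 were again on in SHR and off in WKY and 78 had the same sign, beside 28 of all gene names (0.105%) with that pattern. Of the 11, 4 were again on in WKY and off in SHR, beside 61 of all names (0.23%). With the arrays labelled SHRSP at 6 weeks these numbers were 12 of 94, with 66 of the same sign, and 5 of 11. The share of all genes with the same sign was not counted. Across genes SHR minus WKY at both ages correlated at r = 0.49, and both labels were set against the same WKY arrays.

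Vegfb, which encodes vascular endothelial growth factor B, a ligand of the receptor Flt1, had the largest on/off difference. It read 0.20, 0.33 and 0.34 in the WKY arrays and -9.46, -10.01 and -9.35 in the SHR arrays, at least 301-fold lower (adjusted p = 1.49e-13). All 3 WKY arrays were well above background and no SHR array was. Whether the strains differ in sequence under this single probe was not tested. SHRSP at 3 weeks was on, at 0.43 to 0.60. Since Vegfb is one of the genes that cross between the labels, its value follows which arrays carry the name SHR: at 6 weeks SHR minus WKY was 0.14, and the probe was off in SHRSP.

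Of the 10 VEGF family and receptor genes tested, Vegfb was the only one lower and 1 was higher (20% called, beside 18.2% of all genes). Vegfa, the main angiogenic ligand, read 2.77, 2.72 and 2.74 in WKY and 2.95, 2.78 and 3.05 in SHR, a difference of 0.18 ± 0.11 (adjusted p = 0.284). Flt1, the receptor that Vegfb binds, differed by 0.08 ± 0.10 (adjusted p = 0.693). The receptor gene Kdr differed by -0.18 ± 0.11 (adjusted p = 0.305). Vegfc was the member that was higher, at 0.41 ± 0.12 (adjusted p = 0.0265), and leaving out WKY replicate 1 or 3 or any 1 of the SHR arrays took its adjusted p to as much as 0.111. Scaling to the median of each array also ended that call. The list's median was 0.12, and 0.076 without SHR replicate 3.

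Kynu, the gene of kynureninase, which cleaves kynurenines in the breakdown of tryptophan, showed the largest bound in the other direction. It read -7.74, -8.10 and -7.64 in WKY and -1.0, -0.95 and -1.38 in SHR, at least 91.2-fold higher (adjusted p = 1.55e-10). No WKY array was well above background and all SHR arrays were. At 6 weeks 1 of the WKY arrays and all SHR and SHRSP arrays were well above background. SHRSP at 3 weeks was on as well, with a mean of -2.13, and SHRSP minus SHR was -1.01 (adjusted p = 0.00854).

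Of 10 kynurenine pathway genes tested, 3 were higher in SHR and none lower (30%, beside 18.2% of all genes), with a median of 0.19. Qprt, the enzyme that makes the nicotinic acid nucleotide from quinolinate, read -4.83, -4.82 and -4.44 in WKY and -3.77, -2.94 and -2.90 in SHR, and differed by 1.5 ± 0.26 (adjusted p = 0.0011). Aadat, a kynurenine aminotransferase, differed by 0.61 ± 0.17 (adjusted p = 0.0248), with an adjusted p of up to 0.0932 without WKY replicate 1 or 3 or SHR replicate 1 or 2, and was not called after scaling to the median of each array. The count was 2 without WKY replicate 1 and 2 without SHR replicate 2. Tdo2, a liver enzyme at the head of the pathway, read -7.26, -2.25 and -6.58 in SHR against -7.06, -7.76 and -7.09 in WKY, high only in SHR replicate 2.

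Oxnad1, named for an oxidoreductase domain that binds NAD, read -9.35, -10.32 and -9.83 in WKY and -1.65, -2.34 and -2.07 in SHR, at least 49.3-fold higher (adjusted p = 1.94e-07). Vom2r53, of the vomeronasal receptor family, read -9.29, -10.26 and -9.80 in WKY and -3.82, -2.61 and -2.37 in SHR, at least 26.2-fold higher (adjusted p = 0.00015). Neither gene was well above background on any of the 6 WKY arrays of both ages, and both were so on all 12 arrays of SHR and SHRSP. For these genes the difference from WKY therefore held whichever of the hypertensive labels was used. Vomeronasal receptor genes form a large family of similar copies, so which copy the Vom2r53 probe measured is uncertain.

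Fosl1, a transcription factor of the Fos family, read -9.32, -10.30 and -7.78 in WKY and -4.69, -4.23 and -4.09 in SHR, at least 9.90-fold higher (adjusted p = 0.000591). Its level in SHRSP at 3 weeks was -7.42 to -5.25, between the other strains. Nxph1, which encodes the secreted protein neurexophilin, was at least 4.76-fold higher (adjusted p = 2.36e-05), while its second probe was well above background on 1 of the SHR arrays and none of the WKY arrays. Slc1a4, a transporter of neutral amino acids, was at least 3.71-fold higher (adjusted p = 0.000393). Egr4, an immediate early transcription factor, was at least 3.61-fold higher (adjusted p = 0.0021). Dkk1, a secreted inhibitor of Wnt signalling, was at least 2.12-fold higher (adjusted p = 0.00197).

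Among the 94, 8 genes rested in size on SHR replicate 2, the array highest in liver transcripts. Values without it still hold SHR replicate 3, which was also above WKY for Alb and Tf. The part of liver RNA in them was not tested. Apoa1, an apolipoprotein of the liver, read -8.65, -8.84 and -9.32 in WKY and -7.16, 0.12 and -5.04 in SHR, at least 12.3-fold higher with that array and at least 2.91-fold without it. Its adjusted p was 0.0137 with that array and 0.017 without it, and it was not called after normexp background correction or with the WKY and SHR arrays at 3 weeks fitted alone (adjusted p = 0.104 and 0.114). The bounds of Apoh went from 11.9 to 2.18, of Gckr from 5.87 to 1.96 and of Ftcd from 4.41 to 1.68. Those of Serpinf2 went from 4.39 to 1.62, of Upb1 from 3.94 to 1.36 and of Clec4f from 3.16 to 1.22. Acox2, a peroxisomal oxidase of bile acid synthesis, kept more of its size: it read -5.55, -2.42 and -5.22 in SHR against -9.03, -9.69 and -8.62 in WKY. Its bound was 9.50-fold with SHR replicate 2 and 4.79-fold without it (adjusted p = 7.62e-05 and 6.39e-06). It was also off in all WKY arrays and on in all SHR arrays at 6 weeks.

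After Vegfb, the bounds of genes on in WKY and off in SHR were at most 4.56-fold. Gsta3l1, a relative of the alpha class glutathione transferases, read -5.45, -6.03 and -5.78 in WKY and -9.04, -9.71 and -9.47 in SHR, at least 4.56-fold lower (adjusted p = 3.55e-07). It was off in SHRSP at both ages and in SHR at 6 weeks, and on in all 6 WKY arrays. Its close paralogs may share the probe, so the copy measured is uncertain. Dnai2, a dynein intermediate chain of motile cilia, was at least 2.54-fold lower (adjusted p = 8.08e-05), and Atp12a, a proton and potassium pump, at least 2.30-fold lower (adjusted p = 0.00223). Normexp background correction ended the call of Atp12a (adjusted p = 0.184). Nipal1 was at least 2.15-fold and Nat3 at least 1.76-fold lower. Znf512 was on and off by the flags, with a bound of 3.15-fold, but was not called (adjusted p = 0.0592): WKY replicate 1 read -4.26 and both other WKY arrays -7.03. It was called with the slide as a fixed block (adjusted p = 0.0435) and with the replicate block (adjusted p = 0.0239).

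**Figure D4:**
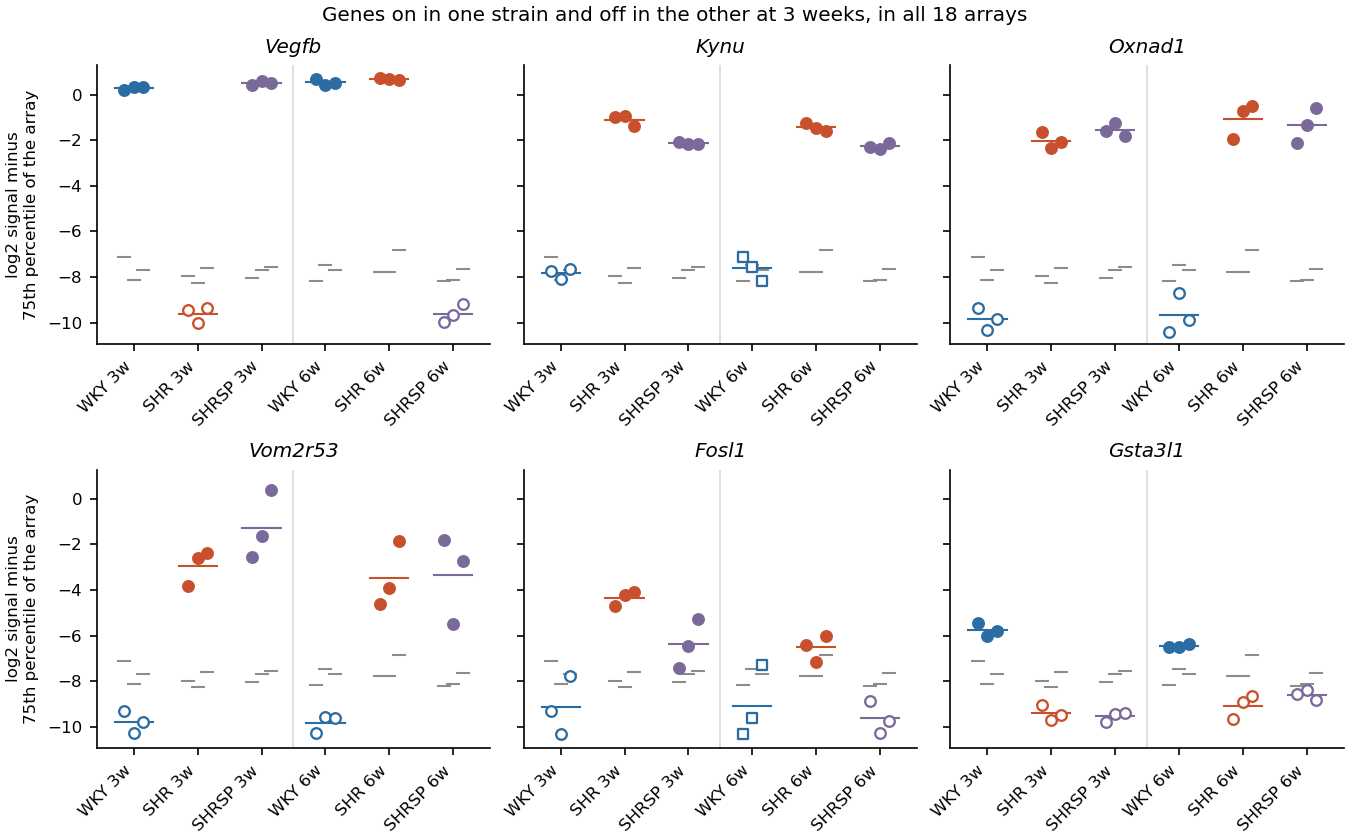
Levels (log2 signal minus the array's 75th percentile, vertical axis) of 6 genes in the 3 arrays of each of the 6 groups, with the group mean as a line. Filled circles stand for groups with all 3 arrays well above background, open circles for groups with none and open squares for groups with 1 or 2, and short grey lines mark, for each array, the dimmest signal of a probe marked well above background. Vegfb is off in SHR at 3 weeks and in SHRSP at 6 weeks, while Kynu, Oxnad1 and Vom2r53 are on in all SHR and SHRSP groups.

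Falls and rises were ranked among called genes above background on all 6 arrays whose strains did not overlap, and the largest fall was in Apln. It encodes apelin, a peptide that relaxes vessels and acts through the receptor Aplnr. Apln read 1.23, 1.26 and 1.45 in WKY and -3.19, -2.93 and -2.75 in SHR. The difference was -4.27 ± 0.27 (adjusted p = 2.77e-07), ran from -4.42 to -4.19 within slides and was -4.04 at 6 weeks, or -4.14 with the arrays labelled SHRSP. Aplnr read -3.21, -3.21 and -3.44 in WKY and -3.73, -3.78 and -3.89 in SHR, a smaller difference of -0.52 ± 0.12 (adjusted p = 0.00898). The ligand and its receptor were thus both lower in SHR at 3 weeks.

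Gfra1, the receptor subunit that binds GDNF and signals through Ret, read -2.12, -2.21 and -2.23 in WKY and -6.56, -6.63 and -5.77 in SHR, a difference of -4.13 ± 0.29 (adjusted p = 5.95e-07). Its ligand gene Gdnf read -5.43, -5.52 and -5.62 in WKY and -7.16, -7.50 and -6.84 in SHR, and differed by -1.64 ± 0.28 (adjusted p = 0.000952). Ret differed by 0.49 ± 0.32 (adjusted p = 0.348). Both the ligand and its binding subunit were lower in SHR, by unlike amounts. Of 15 genes of GDNF family and neurotrophin signalling tested, 3 were higher (Artn, Pspn and Gfra4) and 2 lower (33.3%, beside 18.2% of all genes). The number higher fell to 0 without WKY replicate 2 or SHR replicate 3 and to 1 without WKY replicate 1. Normexp background correction ended the calls of these 3 as well. The Gfra1 difference was smaller at 6 weeks, at -1.06, and the change between ages was 3.07 ± 0.41 (adjusted p = 0.000891). With the arrays labelled SHRSP at 6 weeks these values were -1.80 and 2.33 (adjusted p = 0.00229 for the change). In WKY the level of Gfra1 was -4.64 at 6 weeks, so it was the WKY level that lay nearer to SHR there.

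Scn10a, a voltage-gated sodium channel best known from sensory neurons, read -1.46, -1.59 and -1.63 in WKY and -5.28, -5.49 and -5.89 in SHR, and differed by -3.99 ± 0.17 (adjusted p = 3.62e-09). Of 10 sodium channel genes tested, 2 were lower and 2 higher (40%, beside 18.2% of all genes). Scn3a, a channel of developing neurons, differed by 0.70 ± 0.14 (adjusted p = 0.00341). Scn4b, an auxiliary subunit, differed by 0.36 ± 0.11 (adjusted p = 0.0401), and its adjusted p reached 0.158 without any 1 of the WKY arrays or SHR replicate 1 or 2. The slide as a fixed block (adjusted p = 0.0533), quantile normalization, scaling to the median and normexp background correction also ended its call, as did keeping dim probes and fitting these 6 arrays alone. The number higher was 1 without any 1 of the WKY arrays and 1 without SHR replicate 2.

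Other falls were in genes of unlike function. Prss35, a secreted protein of the serine protease family, read 0.93, 0.79 and 1.17 in WKY and -2.09, -2.17 and -1.97 in SHR, with a difference of -3.04 ± 0.34 (adjusted p = 2.83e-05) that was larger at 6 weeks, at -4.76 and, with the arrays labelled SHRSP, -5.60. Mmp9, a gelatinase of the extracellular matrix, differed by -2.44 ± 0.21 (adjusted p = 2.99e-06). Ifi44l, an interferon-induced gene, differed by -2.63 ± 0.13 (adjusted p = 1.54e-08). Igsf9, a cell adhesion protein, differed by -3.17 ± 0.38, and Tatdn3, of a deoxyribonuclease family, by -2.50 ± 0.09 (adjusted p = 5.95e-05 and 5.85e-10). Each of these 5 genes was again called lower at 6 weeks under both labels. There Ifi44l and Tatdn3 differed by -2.91 and -2.89 in SHR and by -2.36 and -2.39 in SHRSP. Mmp9 was off at 6 weeks in SHR and SHRSP, and Igsf9 was well above background on 1 of the SHR and 2 of the SHRSP arrays, so their size there is not given.

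The largest rise was in Ass1, the argininosuccinate synthase of the urea cycle and of arginine supply. It read -4.12, -4.40 and -4.26 in WKY and -0.60, 0.71 and -0.08 in SHR, a difference of 4.27 ± 0.38 (adjusted p = 4.73e-06), and of 3.92 without SHR replicate 2. Cbs, which joins homocysteine and serine, read -6.36, -6.07 and -5.82 in WKY and -3.44, -2.03 and -3.21 in SHR, a difference of 3.19 ± 0.32 (adjusted p = 1.33e-05) and of 2.76 without that array. Cbs is also one of the genes that cross between the labels, with SHRSP minus SHR at -2.12 at 3 weeks and 2.51 at 6 weeks. Aspg, an asparaginase, read -4.68, -5.67 and -4.90 in WKY and -2.39, -1.02 and -0.89 in SHR, 3.65 ± 0.71 higher (adjusted p = 0.00234). All 3 are enzymes of amino acid metabolism that the liver also makes, and each was higher in SHR replicates 1 and 3 as well as in replicate 2. The part of liver RNA in these values was not tested beyond that.

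Several further rises were tight. Lrat, which stores retinol as esters, read -3.10, -3.17 and -3.0 in WKY and 0.46, 0.46 and 0.24 in SHR, 3.48 ± 0.40 higher (adjusted p = 3.89e-05). Ell2, a factor of transcript elongation, was 3.57 ± 0.32 higher (adjusted p = 4.72e-06). Slc25a30, a mitochondrial carrier, was 2.85 ± 0.41 higher and Nat8f5, of an acetyltransferase family, 3.02 ± 0.31 (adjusted p = 0.000267 and 1.59e-05). Sult1e1, the estrogen sulfotransferase, read -6.56, -7.14 and -6.97 in WKY and -3.25, -3.46 and -3.02 in SHR, 3.65 ± 0.62 higher (adjusted p = 0.000977). At 6 weeks Sult1e1 was well above background on 1 of the WKY arrays and on none of SHR or SHRSP, so no difference was measured there.

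Crem, a transcription factor of the cAMP response, read 0.41, 0.36 and 1.15 in WKY and 3.64, 3.99 and 3.88 in SHR, 3.20 ± 0.46 higher (adjusted p = 0.000242). Scx, a transcription factor known from tendon, was 2.96 ± 0.66 higher (adjusted p = 0.00569). Nr4a3, an orphan nuclear receptor of the immediate early response, was 2.91 ± 0.87 higher by the probe that stands for the gene (adjusted p = 0.0305), but leaving out any 1 of the 6 arrays gave an adjusted p of up to 0.0991. Its second probe differed by -0.35 ± 0.58 (adjusted p = 0.759), and the mean over its probes was not called.

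**Figure D5:**
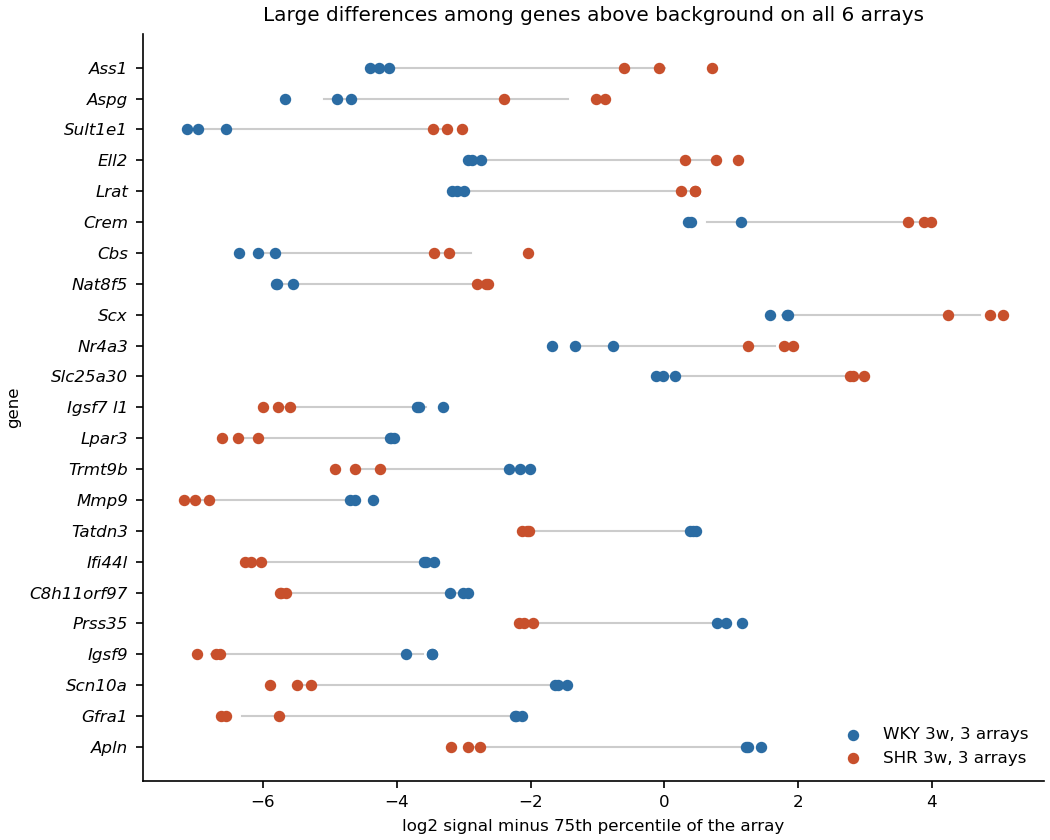
Levels (log2 signal minus the array's 75th percentile, horizontal axis) of 11 of the 12 largest rises and the 12 largest falls among called genes well above background on all 6 arrays, with WKY and SHR arrays at 3 weeks as points and a line between the group means. Strains that did not overlap were a condition for the choice of these 23 genes, and the differences run from -4.27 for Apln to 4.27 for Ass1.

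Genes of steroid hormone synthesis were called in both directions. Of 26 tested, 4 were higher and 2 lower in SHR (23.1%, beside 18.2% of all genes). The list's median was -0.0022, and -0.028 to 0.026 with 1 array left out. Star, which carries cholesterol into mitochondria and is the first controlled step of the pathway, read 4.91, 5.12 and 5.03 in WKY and 5.58, 5.56 and 5.61 in SHR, 0.57 ± 0.08 higher (adjusted p = 0.00034). Hsd17b7, which acts on sex steroids and in cholesterol synthesis, was 1.43 ± 0.18 higher (adjusted p = 7.63e-05). Cyp11b1, the last enzyme of corticosterone synthesis, read 6.71, 6.75 and 6.65 in WKY and 6.84, 6.81 and 6.76 in SHR, a difference of 0.10 ± 0.08 (adjusted p = 0.493). Cyp11b2, the aldosterone synthase, differed by 0.13 ± 0.13 (adjusted p = 0.567), and Cyp11a1 and Cyp21a1 by less than their standard errors. The other members called, Mc2r, Mrap, Srd5a1 and Nr0b1, each lost the call when single arrays were left out, and Mc2r and Mrap also after scaling to the median. The 2 that were lower, Srd5a1 and Nr0b1, were both lost without WKY replicate 2, SHR replicate 2 or SHR replicate 3, and 1 was left without WKY replicate 1 or 3 or SHR replicate 1. Of 19 zona glomerulosa genes 1 was lower and none higher (5.26%, beside 18.2% of all genes).

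Cholesterol genes leaned one way, with 13 of 34 higher in SHR and none lower and a median of 0.29, beside 9.03% of all genes higher. The count was 9 to 14 with 1 array left out. Insig1, which holds back the sterol-sensing machinery, read 0.10, 0.48 and 0.31 in WKY and 1.57, 2.14 and 1.80 in SHR, 1.54 ± 0.21 higher (adjusted p = 0.000173). Acat2 was 1.31 ± 0.20 higher, Idi1 0.97 ± 0.19 and Cyp51 0.65 ± 0.16, all enzymes of the synthesis route (adjusted p = 0.000456, 0.00214 and 0.00882). Abca1, which exports cholesterol, was 1.14 ± 0.15 higher (adjusted p = 9.61e-05), so genes of synthesis and of export were among those called. Sqle read 0.41, 0.49 and 0.45 in WKY and 0.22, 0.37 and 0.75 in SHR, and Hmgcs1 differed by 0.28 ± 0.19 (adjusted p = 0.37).

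In the medulla list 11 of 37 chromaffin and catecholamine genes were higher in SHR and 2 lower (35.1%, beside 18.2% of all genes), with a median of 0.38. Without SHR replicate 3, the array highest in nerve genes, the median was 0.19 and 9 were higher. Without WKY replicate 2 the number higher was 7. Gch1, the first enzyme on the way to tetrahydrobiopterin, a cofactor that Th needs, read -1.01, -0.81 and -0.91 in WKY and 0.71, 0.94 and 0.91 in SHR, 1.76 ± 0.27 higher (adjusted p = 0.000403). Hand2, a transcription factor of sympathetic cells, was 1.15 ± 0.15 higher (adjusted p = 9.1e-05). Genes of the secretory granule were higher by less: Scg2 by 0.56 ± 0.09, Chgb by 0.41 ± 0.10, Scg5 by 0.56 ± 0.12 and Cyb561 by 0.49 ± 0.09 (adjusted p = 0.000856, 0.00804, 0.00497 and 0.00166). Ddc, which makes dopamine from L-DOPA, was lower, at -0.36 ± 0.08 (adjusted p = 0.00728). The other gene lower, Spr, lost its call when any 1 array was left out, which leaves 1 gene lower. Th, Dbh and Pnmt, the remaining enzymes of the route, were not called. Th, the rate-limiting one, read 3.93, 3.82 and 3.79 in WKY and 4.19, 4.15 and 4.18 in SHR, a difference of 0.33 ± 0.13 (adjusted p = 0.0997), with no overlap, and was called with these 6 arrays fitted alone (adjusted p = 0.021). Dbh differed by 0.42 ± 0.17 and Pnmt, which turns noradrenaline into adrenaline, by 0.13 ± 0.12 (adjusted p = 0.115 and 0.519).

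Immediate early genes are switched on within minutes of a stimulus, handling and tissue collection included. Of 28 tested, 10 were higher in SHR and none lower (35.7%, beside 18.2% of all genes), with a median of 0.53. The count was 7 to 9 with 1 array left out. Beside Fosl1 and Egr4, Maff was 1.95 ± 0.25 higher, Atf3 1.71 ± 0.22, Ier3 1.47 ± 0.25 and Klf4 1.35 ± 0.24 (adjusted p = 0.000118, 0.000108, 0.000944 and 0.00117). Jun read 2.41, 2.62 and 2.83 in WKY and 3.61, 3.24 and 3.58 in SHR, 0.86 ± 0.20 higher (adjusted p = 0.0066). The best known members did not follow. Fos read -4.92, -5.47 and -5.29 in WKY and -5.87, -5.48 and -5.28 in SHR, a difference of -0.31 ± 0.47 (adjusted p = 0.733). Egr1 differed by -0.05 ± 0.32 and Nr4a1 by 0.05 ± 0.68 (adjusted p = 0.954 and 0.98). At 6 weeks 4 of the 28 were higher and 7 lower, with a median of -0.39, and with the arrays labelled SHRSP 3 were higher and 15 lower, with a median of -1.0. The sources used here do not say how or when the glands were collected.

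Of 17 genes that respond to glucocorticoids 7 were higher and none lower (41.2%, beside 18.2% of all genes), with a median of 0.38. The count fell to 3 without WKY replicate 1, without WKY replicate 2 or without SHR replicate 3. Fkbp5, which binds the glucocorticoid receptor and is induced by it, read 0.35, 0.48 and 0.53 in WKY and 1.43, 1.63 and 1.67 in SHR, 1.12 ± 0.11 higher (adjusted p = 7.53e-06). Glul, glutamine synthetase, was 1.26 ± 0.21 higher (adjusted p = 0.000674) and Errfi1, which curbs the EGF receptor, 0.66 ± 0.16 (adjusted p = 0.0115). These 3 kept their calls with any 1 array left out.

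In the circadian clock list 3 of 18 genes were higher and 2 lower (27.8%, beside 18.2% of all genes). Bmal1, the central activator of the clock, read 0.55, 0.36 and 0.43 in WKY and -0.42, -0.40 and -0.01 in SHR, a difference of -0.72 ± 0.16 (adjusted p = 0.0067). Npas2, which can pair with Bmal1, differed by -0.65 ± 0.14 (adjusted p = 0.0042), and the mean over its probes was not called. Ciart, a repressor that binds Bmal1, was 1.79 ± 0.39 higher (adjusted p = 0.00504) and well above background on 1 of the WKY and all SHR arrays. It was not called after normexp background correction. Without WKY replicate 1 or 2 or SHR replicate 2 Nfil3, also higher, lost its call, which leaves 2 genes higher. Per1, Per2, Dbp and Nr1d1 were not called, with differences of 0.25, 0.32, 0.40 and 0.17.

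Among vasoactive peptides and their receptors, 8 of 30 were higher and 3 lower (36.7%, beside 18.2% of all genes). The 3 lower were Apln, Aplnr and Avp. Avp, the vasopressin gene, read -4.06, -3.99 and -4.09 in WKY and -4.71, -4.65 and -4.59 in SHR, a difference of -0.60 ± 0.11 (adjusted p = 0.00158). Gal and Vip, neuropeptides of adrenal nerves and chromaffin cells, were 1.34 ± 0.24 and 1.31 ± 0.21 higher (adjusted p = 0.00144 and 0.000623). Receptors were also higher: Npr3, which clears natriuretic peptides, by 1.12 ± 0.25, Ednrb, for endothelin, by 0.66 ± 0.15, and Npy1r, for neuropeptide Y, by 0.56 ± 0.10 (adjusted p = 0.00595, 0.00657 and 0.00117). Ramp3, a partner of the adrenomedullin receptor, was 0.61 ± 0.13 higher (adjusted p = 0.00389). These 7 genes kept their calls with any 1 array left out.

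In the renin-angiotensin system 4 of 14 genes were lower in SHR and none higher (28.6%, beside 18.2% of all genes). The count was 1 without any 1 of the WKY arrays, 2 without SHR replicate 2 and 1 without SHR replicate 3. The gene that kept its call was Agtr1b, an angiotensin receptor of the zona glomerulosa, which read 1.43, 1.54 and 1.58 in WKY and 1.05, 0.93 and 0.23 in SHR, -0.78 ± 0.19 (adjusted p = 0.0098). Fitting the WKY and SHR arrays at 3 weeks alone ended that call. Agt, angiotensinogen, differed by -1.24 ± 0.38 (adjusted p = 0.0334) and Agtrap, which binds the receptor, by -0.48 ± 0.16 (adjusted p = 0.0493), with adjusted p up to 0.115 and 0.189 on leaving out single arrays. The slide as a fixed block ended the call of Agt (adjusted p = 0.0519). Quantile normalization, scaling to the median, keeping dim probes and averaging probes each ended that of Agtrap. Agtrap is also one of the genes that cross between the labels, at -4.95 in SHRSP at 3 weeks. Ace, which makes angiotensin II, differed by 0.44 ± 0.16 (adjusted p = 0.0735), and was called after quantile normalization, with the slide as a random block and with these 6 arrays fitted alone.

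Of 27 genes that earlier work linked to SHR, 5 were higher and 3 lower (29.6%, beside 18.2% of all genes). Endog, the mitochondrial endonuclease G, read -0.51, -0.34 and -0.17 in WKY and -2.47, -2.16 and -2.20 in SHR, -1.94 ± 0.13 (adjusted p = 3.41e-07), and was the one lower member left without WKY replicate 1 or 2 or SHR replicate 2 or 3. Nos1, the neuronal nitric oxide synthase, was 1.44 ± 0.25 higher (adjusted p = 0.00111) and Adra1b, an adrenergic receptor, 0.78 ± 0.16 (adjusted p = 0.0042). The number higher was 3 without WKY replicate 1 and 3 without SHR replicate 3. The fatty acid carrier Cd36, the glutathione transferase Gstm1 and the epoxide hydrolase Ephx2 were not called, at -0.05 ± 0.15, 0.10 ± 0.12 and 0.51 ± 0.30 (adjusted p = 0.882, 0.672 and 0.283). Among 35 glutathione and detoxification genes 3 were higher and 4 lower (20%, beside 18.2% of all genes). Only Gsr, glutathione reductase, kept its call with each array left out in turn, at -0.41 ± 0.08 (adjusted p = 0.00378). The number higher in that list was 0 without WKY replicate 1 and 1 without WKY replicate 3 or SHR replicate 2, and the number lower was 1 without WKY replicate 2 or SHR replicate 2 or 3.

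Of 25 interferon response genes 2 were higher and 2 lower (16%, beside 18.2% of all genes). Among them were Ifi44l, at -2.63, and Isg20, an exonuclease, at 0.64 ± 0.12 (adjusted p = 0.00217). Ifi44 and Herc6, the others called, lost the call on leaving out single arrays, Ifi44 without WKY replicate 2 or 3 or SHR replicate 2 or 3 and Herc6 without WKY replicate 1 or SHR replicate 3 or with these 6 arrays fitted alone. Of 21 antigen presentation genes 3 were higher and none lower (14.3%, beside 18.2% of all genes). They were led by RT1-DOb, a class II chain of B cells, at 1.65 ± 0.25 (adjusted p = 0.000384). RT1 genes are highly similar and vary between strains, so this value may hold signal of other members or of a mismatch under the probe, which was not tested. Of 33 cell cycle genes 1 was higher and 1 lower (6.06%, beside 18.2% of all genes). Mcm7 of the replication helicase was higher, at 1.12 ± 0.08 (adjusted p = 4.31e-07), and the mitotic kinase Aurka lower, at -0.71 ± 0.12 (adjusted p = 0.00089). Only 4 of the 33 differences were above 0, beside a median of -0.0084 over all genes. The list's median was -0.22, with -0.52 to -0.015 within slides, and -0.13 without SHR replicate 1. At 6 weeks it was -1.02 with 25 lower, and with the arrays labelled SHRSP -0.55 with 16 lower. Of 9 T and B cell markers 2 were lower and none higher (22.2%, beside 18.2% of all genes), with a median of -0.38. One of them was Cd3g, a chain of the T cell receptor complex, which differed by -0.66 ± 0.22 (adjusted p = 0.0462), with an adjusted p of up to 0.183 on leaving out single arrays. The number lower was 3 without WKY replicate 1 and 1 without WKY replicate 2 or 3 or SHR replicate 1 or 3, and the median was -0.26 without SHR replicate 2. The part of B and T cells in the value of RT1-DOb was not tested.

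Markers of other cell types were read for the same 6 arrays. Of 18 endothelial markers 4 were higher and 1 lower (27.8%, beside 18.2% of all genes). Erg differed by 0.46 ± 0.06, Tie1 by 0.69 ± 0.14, Sox17 by 0.92 ± 0.22, Sox18 by 0.43 ± 0.12 and Cldn5 by -0.76 ± 0.15 (adjusted p = 0.000146, 0.0035, 0.00825, 0.0211 and 0.00256). The summed signal of the endothelial list was 29.3 to 30.1 in both strains. Sox18 lost its call without any 1 of the WKY arrays or SHR replicate 2. None of 16 smooth muscle and fibroblast, 15 macrophage and 8 red cell markers was called on all 6 arrays, and 1 smooth muscle marker was called without SHR replicate 1 and 1 macrophage marker without WKY replicate 3 or SHR replicate 2. Of 13 nerve markers 1 was called (7.69%, beside 18.2% of all genes). This was Nefh, a neurofilament of large axons, at 1.41 ± 0.14 (adjusted p = 1.62e-05), and it was called with any 1 array left out. The nerve count was 4 without SHR replicate 1 and 2 without SHR replicate 2. Of 21 fat markers 3 were higher and none lower (14.3%, beside 18.2% of all genes, so no larger a share). Dio2, which activates thyroid hormone, was higher by 3.01 ± 0.65 (adjusted p = 0.00473). Lpl, the lipoprotein lipase, was higher by 1.68 ± 0.35, and Elovl3, an elongase, by 1.42 ± 0.25 (adjusted p = 0.00397 and 0.0013). Ucp1, the marker of brown fat, read 3.37, 3.82 and 4.87 in WKY and 4.59, 5.47 and 5.87 in SHR, 1.29 ± 0.78 (adjusted p = 0.305). Of the 21 fat markers 20 had a difference above 0, with a median of 0.67 and of 0.46, 0.90 and 0.71 within the slides of replicates 1, 2 and 3. Over all genes the median was -0.0084, with quartiles of -0.19 and 0.20. The median of the fat list was 0.40 without SHR replicate 3, and -0.81 at 6 weeks, or -0.42 with the arrays labelled SHRSP. The part of fat tissue in the other results was not tested. Without SHR replicate 1 the fat count was 6. Of 19 kidney and liver markers 2 were higher and 2 lower (21.1%, beside 18.2% of all genes), and 8 were higher and 1 lower without SHR replicate 1. Afp, made by fetal liver, was lower in SHR, least so in replicate 2, the array highest in liver transcripts. It read -2.44, -2.56 and -2.42 in WKY and -7.77, -2.91 and -7.13 in SHR. Its difference was -3.47 ± 0.87 (adjusted p = 0.0121), -4.98 without SHR replicate 2, and not called without SHR replicate 1 or 3 (adjusted p up to 0.0638) or with these 6 arrays fitted alone.

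Where a gene had more than 1 probe, the probes mostly gave like values. Of 2351 genes with 2 or more probes in the fit, the median gap between the highest and the lowest difference was 0.12, and 64 genes had a gap of 1 or more. In 4 genes (Lpar3, Bbs1, Cd99l2 and Nrip1) probes were called in opposite directions. Both genes shown next are given as bases 16 to 45 of each probe, since the call depends on which of them is read. The Lpar3 probes lie at chr2:244509457-244509516 and chr2:244510652-244510711 on the plus strand of rn4, and the Spock2 probes at chr20:27421784-27421842 and chr20:27425808-27425867, also on the plus strand.
Lpar3, first probe: gcatcagccagggccaggtgtgcaataaaa
Lpar3, second probe: ttcaaggcaggtactatggtatttatgtag
Spock2, first probe: caaatgcacactttcacgcacatggacaca
Spock2, second probe: cagcctaaggaaacaagttcactctacaca

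Lpar3 encodes a receptor for lysophosphatidic acid. Its first probe read -4.10, -4.04 and -4.08 in WKY and -6.61, -6.38 and -6.07 in SHR, -2.28 ± 0.12 (adjusted p = 5.3e-08). The second read -9.41, -7.72 and -7.97 in WKY and -7.09, -6.59 and -6.65 in SHR, 1.59 ± 0.35 (adjusted p = 0.00567), and was well above background on 1 of the WKY arrays. Opposite signs from neighbouring stretches of 1 gene mean that its direction is not settled here, and the first probe also crosses between the SHR and SHRSP labels. Spock2, a proteoglycan gene, differed by 3.32 ± 0.23 at its first probe (adjusted p = 4.86e-07), with -6.01, -6.05 and -5.77 in WKY and -2.96, -2.85 and -2.06 in SHR. At its second probe, printed 10 times on each array, the difference was 0.014 ± 0.160 (adjusted p = 0.971). Sequence differences between the strains under these probes were not tested.

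By position on rn4, the share of genes called at 2-fold or more ran, leaving out the 12 mitochondrial genes, from 1.68% of 536 genes on chromosome 19 to 5.88% of 561 on chromosome 16, beside 3.52% overall. In windows of 5 Mb with at least 15 genes tested, the median share was 3.03% and 133 of 435 windows had none. The highest share was in chromosome 4 from 70 to 75 Mb, where 7 of 19 genes were called at 2-fold or more, 2 higher and 5 lower. They included Arhgef5, an exchange factor for small GTPases, 1.25 ± 0.19 higher (adjusted p = 0.000384), Fam115c, at -1.83 ± 0.12 (adjusted p = 3.68e-07), and the olfactory receptor gene Or13m2, at -1.71 ± 0.38 (adjusted p = 0.00585). The 7 also include unnamed transcripts that lie against Arhgef5 and Fam115c, so they are fewer than 7 separate loci. Olfactory receptors there are near copies of each other, so the copy measured is uncertain. The next window, chromosome 14 from 40 to 45 Mb, held 5 of 22, all higher.

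Set beside 6 weeks, where 6077 genes (29.2%) were called between SHR and WKY in arrays that the 3-week comparison does not share, 2320 genes were called the same way at both ages. These are 61.1% of the 3-week and 38.2% of the 6-week calls, and 87 were called in opposite directions. With the arrays labelled SHRSP at 6 weeks 4984 genes (23.9%) were called against WKY, 1649 of them the same way as SHR at 3 weeks, 43.4% of the 3-week and 33.1% of the 6-week calls, and 253 in opposite directions. The difference between ages was itself called for 1211 genes (5.81%), 709 upwards and 502 downwards, and 444 of them were also called at 3 weeks. That split was 321 and 468 after quantile normalization and 1122 and 388 after scaling to the median, and with the slide as a fixed block 2621 genes were called. With the arrays labelled SHRSP at 6 weeks in place of SHR it was called for 2273, and 289 of the 444 were among them. Single arrays weighed on the 1211: the count was 519 without SHR replicate 2, 789 without SHR replicate 3, and 589, 566 and 615 without WKY replicates 1, 2 and 3, all at 3 weeks, and 748 without SHR replicate 1 at 6 weeks. Among differences not called as changed between ages under either label, Apln was at -4.27 at 3 weeks and at -4.04 (SHR) and -4.14 (SHRSP) at 6 weeks. Tatdn3 was at -2.50, -2.89 and -2.39 and Endog at -1.94, -1.99 and -1.70 in the same order. Scn10a was at -3.99, -3.51 and -5.06, and its change was called with the arrays labelled SHRSP (-1.06, adjusted p = 0.0102) and not with SHR.

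SHRSP at 3 weeks was set against SHR to show where the SHR level differed from its relative, and 1651 genes (7.93%) were called. The count was 891 without SHR replicate 2, 957 without SHRSP replicate 2 and 1045 without SHRSP replicate 3. Vegfb was on in SHRSP and off in SHR and Lpar3 was 2.44 higher in SHRSP, while Atf3 was -1.79, Errfi1 -1.02 and Npas2 -2.19 in SHRSP minus SHR (adjusted p = 1.09e-13, 3.44e-08, 0.000207, 0.00168 and 3.88e-07). For Apln, Gfra1, Oxnad1, Scn10a, Fkbp5 and Gch1 the same difference was -0.43, 0.54, 0.48, -0.48, 0.23 and -0.11, none of them called (adjusted p = 0.387, 0.305, 0.607, 0.101, 0.225 and 0.835).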

How the data were processed

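Each of 18 one-colour arrays gave 1 scanner file. Per the submitters' processing notes, Agilent Feature Extraction 10.5.1.1 was used, and per the file headers the deposited intensity (processed signal) was spatially detrended without local background subtraction. The deposited series table held the same intensity values. RNA was reverse transcribed with oligo-dT, from 200 ng, per the labels' protocols. Controls and outlier spots were left out, spots of a probe averaged, and levels computed as log2 intensity minus the array's 75th percentile, since the authors deposited values on the linear scale. Of 30367 probes, 17679 were named through RefSeq by accession, 2509 had a RefSeq symbol and 10179 kept the file's name. The probe with the highest mean stood for a gene, and a gene was tested where that probe passed the scanner's background flag on every array of at least 1 group.

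The 6 groups were fitted as group means with limma 3.58.1 in R 4.3.3 (Benjamini-Hochberg adjusted p under 0.05), with tables made in Python 3.11.15. On simulated data the fit recovered 77% of 2-fold and 95% of 4-fold changes among 20827 genes for SHR minus WKY at 3 weeks. The simulation changed few genes and drew noise independently for each array. In the data 18.2% of genes were called and the slide correlation was 0.36, so these shares need not hold here. The number of arrays limits the precision, and nothing in the labels says beyond "biological" how replicates were separated.

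A few genes that the rule or a list holds count in the totals and are not reported here. Named genes were, by rule, the on/off genes with the largest bounds, the 12 largest rises and falls, up to 4 called members of each of 30 gene lists, the largest changes between ages and a fixed set that includes Vegfb and Kynu. All other genes were named after their values were seen, among them Avp, Npr3, Ednrb, Ramp3, Klf4, Jun, Fos, Idi1, Chgb, Scg5, Ddc, Alb and Tf. The comparison, lists and rule were chosen with earlier results of these data known. Same-numbered SHR and WKY arrays at 3 weeks correlated in their deviations from the group means at 0.361, 0.0957 and 0.295, and arrays of unlike number at -0.296 to 0.0178. Same-numbered arrays shared a slide. The labels do not say that the numbers pair samples, so the main fit was left unpaired and the slide was tried as a block. Alternatives covered scaling, background correction, filters, probes, slide and replicate blocks, and leaving out each array.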

Additional observations from a re-analysis of the deposited data

Results flagged for a closer look

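The strain difference SHR minus WKY differed between 6 and 3 weeks, by limma's contrast of both differences (Benjamini-Hochberg adjusted p under 0.05), for 30 of the 123 genes named by rule. Over all genes it did so for 5.81%. Some of the 30 were named because this contrast called them, and others for the 3-week difference that is part of it. The count of 30 is therefore partly set by the choice of genes. Positive values mean a larger SHR minus WKY value at 6 weeks. The values below are log2 changes from 3 to 6 weeks, first for the genes also called with the arrays labelled SHRSP at 6 weeks in place of SHR.

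Of these 17, the hormone enzymes changed by 0.64 (Cyp11b1), 1.0 (Cyp11b2) and 0.83 (Pnmt), and with the SHRSP arrays by 0.48, 0.76 and 0.89. The clock genes Bmal1 and Npas2 changed by -1.05 and -1.91, and with the SHRSP arrays by -1.89 and -2.69. The signalling genes Atf3, Errfi1 and Gfra1 changed by -2.41, -0.95 and 3.07, and with the SHRSP arrays by -2.95, -1.14 and 2.33. Genes of fat and lipid handling changed by -4.78 (Dio2), -5.45 (Fabp3) and -1.50 (Cd36), and with the SHRSP arrays by -4.53, -3.68 and -1.19. Sult1e1 changed by -4.78, Prss35 by -1.72, Atp12a by -1.55, RT1-DOb by -1.42, Mgst2 by 0.81 and Insyn2a by 2.58. With the SHRSP arrays these 6 changed by -4.79, -2.57, -1.77, -1.81, 0.91 and 2.13.

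The other 13 were called only with the arrays labelled SHR at 6 weeks. Vegfb changed by 10.03, Agtrap by -4.67, Ephx2 by -5.36, Lpar3 by 2.68 and Serhl2 by 2.53, and with the SHRSP arrays by -0.25, 0.68, -0.62, 0.075 and -0.010. Ass1 changed by -2.81, Aspg by -5.70, Cbs by -2.22 and Nxph1 by -1.81, and with the SHRSP arrays by -0.61, -3.18, 0.29 and -0.82. Scn4b changed by 0.91, Mcm7 by -0.43, RT1-Db1 by 1.03 and Nos1 by -1.51, and with the SHRSP arrays by 0.045, -0.032, 0.28 and -0.53.

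Some of these values are fitted against probes that were off and are no measured sizes. Vegfb was off in SHR at 3 weeks and in SHRSP at 6 weeks, Ephx2 in SHR at 6 weeks, Sult1e1 in SHR and SHRSP at 6 weeks, Nxph1 in WKY at both ages and Atp12a in SHR and SHRSP at both ages.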

How the results depend on the processing

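Of 110 named genes called between SHR and WKY at 3 weeks, 76 kept the call under every alternative that held them. The other 34 lost it under 1 or more, and none changed sign. Only 94 of the 123 named genes were in the run limited to probes well above background on all 18 arrays. That run leaves out the on/off genes, so their calls could not be lost there. The deposited series table held the same intensities, so the run on it could not differ. The number called at 2-fold or more was 381 with normexp background correction. The number on in one strain and off in the other was 68 with the scanner's other detection flag and 46 with a bound of 2-fold or more, an alternative chosen after seeing the data. With 1 array left out, 2640 to 3723 genes were called, 646 to 939 at 2-fold or more, and 130 to 254 were on or off. The change between ages was called for 789 genes after quantile normalization, 772 without a filter on dim probes, 2621 with the slide as a fixed block, 2826 with it as a random block, 789 with the groups of the contrast alone and 2273 with the arrays labelled SHRSP at 6 weeks (chosen after seeing the data), and for 519 to 1211 with 1 array left out. SHRSP minus SHR at 3 weeks was called for 2876 genes with the slide as a random block, 1018 with its groups alone and 891 to 1364 with 1 array left out. With the replicate block 3972 genes were called, 737 of them at 2-fold or more, 1352 between ages and 1779 for SHRSP minus SHR. Each WKY or SHR array at 3 weeks correlated best with the array of its own number in the other strain. Those arrays also shared a slide, so a match by number and a match by slide cannot be told apart. The cause of these shifts was not tested. Off probes have no measured level, and folds of dim probes depend on the background correction.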
